A study of Mus musculus with 16 samples.

Results

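Oxidative phosphorylation genes encode the nuclear subunits of the mitochondrial respiratory chain and of ATP synthase. The set was chosen by symbol alone, from the protein-coding genes of the GENCODE annotation of the mouse assembly mm9 whose names start with Nduf, Sdha to Sdhd, Uqcr, Cox4 to Cox8 or Atp5. The rule found 93 genes among 22271 nuclear protein-coding genes. They were 37 genes of complex I, 4 of complex II, 8 of complex III, 11 of complex IV and 16 of complex V. A further 8 were tissue-restricted forms or relatives of subunits, and 9 carried a matching symbol without being subunits, among them the assembly factors Ndufaf1 to Ndufaf4. No measured value entered the choice.

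Complexes I and II pass electrons from NADH and succinate to ubiquinone, complex III passes them on to cytochrome c, and complex IV, cytochrome c oxidase, hands them to oxygen. Complex V, ATP synthase, uses the proton gradient that complexes I, III and IV build up. Most subunits are made in every cell type, while a few have forms restricted to heart, skeletal muscle, lung or testis, and osteoblasts use oxidative phosphorylation together with glycolysis while they lay down matrix.

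The cells were MC3T3-E1, a mouse calvarial pre-osteoblast line, so a single line stands for the osteoblast here. Chromatin immunoprecipitation and sequencing was run for the transcription factors RUNX2 and C/EBPb and for 5 histone modifications in 2 states. Undifferentiated cells were grown in complete medium. Differentiated cells spent 15 days in that medium with ascorbic acid (50 µg/mL) and glycerol-2-phosphate (10 mM) added, and their mineralised matrix was removed before the assay. All 14 peak lists come from cells at passages 5 to 12 given ethanol vehicle for 3 h, with no gene altered. The authors merged biological replicates into 1 list per antibody and state, so differences between the states carry no replicate check and no p-value, and sequencing depth is unknown. Intervals are exact Clopper-Pearson 95% intervals of a share, and they cover counting error only.

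RUNX2 had 12674 peaks in undifferentiated and 6272 in differentiated cells, and C/EBPb had 15622 and 10847. The H3K4me3 list grew from 6920 to 8196 regions and the H3K9Ac list from 14975 to 23671, while the H4K5Ac list shrank from 41592 to 33439. The part of these list lengths in the gene counts below was not tested. Among osteoblast marker genes, 7 of 8 had a promoter mark in each state, with Runx2, Col1a1 and Col1a2 carrying all 4 promoter marks in both. Bglap, the late osteoblast marker osteocalcin, had none in either state. By H3K4me3 alone, Sp7 had a region in undifferentiated and Spp1 in differentiated cells only, and Alpl and Ibsp had none. None of 6 markers each of muscle, fat, blood and testis cells had promoter H3K4me3 in either state, and 1 of 6 cartilage markers, Sox9, had it in both. Other marks were less selective. H4K5Ac or H3K4me1 was at Adipoq, Fabp4, Cd68, Csf1r, Prm2, Tnp1, Myog, Tnnt2 and Col9a1 in at least 1 state. Col2a1 had H3K9Ac, H4K5Ac and H3K4me1 in both states.

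Most of the 93 genes carried each of 4 histone marks at the promoter in both states. A promoter carried a mark when a region of that mark overlapped 1 kb to either side of any transcription start site (TSS). H3K4me3, the mark of active promoters, was at 75 of 93 genes in undifferentiated cells (80.6%, interval 71.1 to 88.1) and at 83 in differentiated cells (89.2%, interval 81.1 to 94.7), against 34.9% and 40% of all genes. H3K9Ac, an acetylation of active promoters, was at 84 genes in each state, against 49.1% and 52.4% of all genes. H4K5Ac was at 86 and then 84 genes, against 55.4% and 54.2% of all genes. H3K4me1, found at enhancers and promoter flanks, was at 84 and then 83 genes, against 57.1% and 58.9% of all genes. All 4 marks in both states were found at 73 members, 78.5%, and at 32.9% of all genes.

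**Figure D1:**
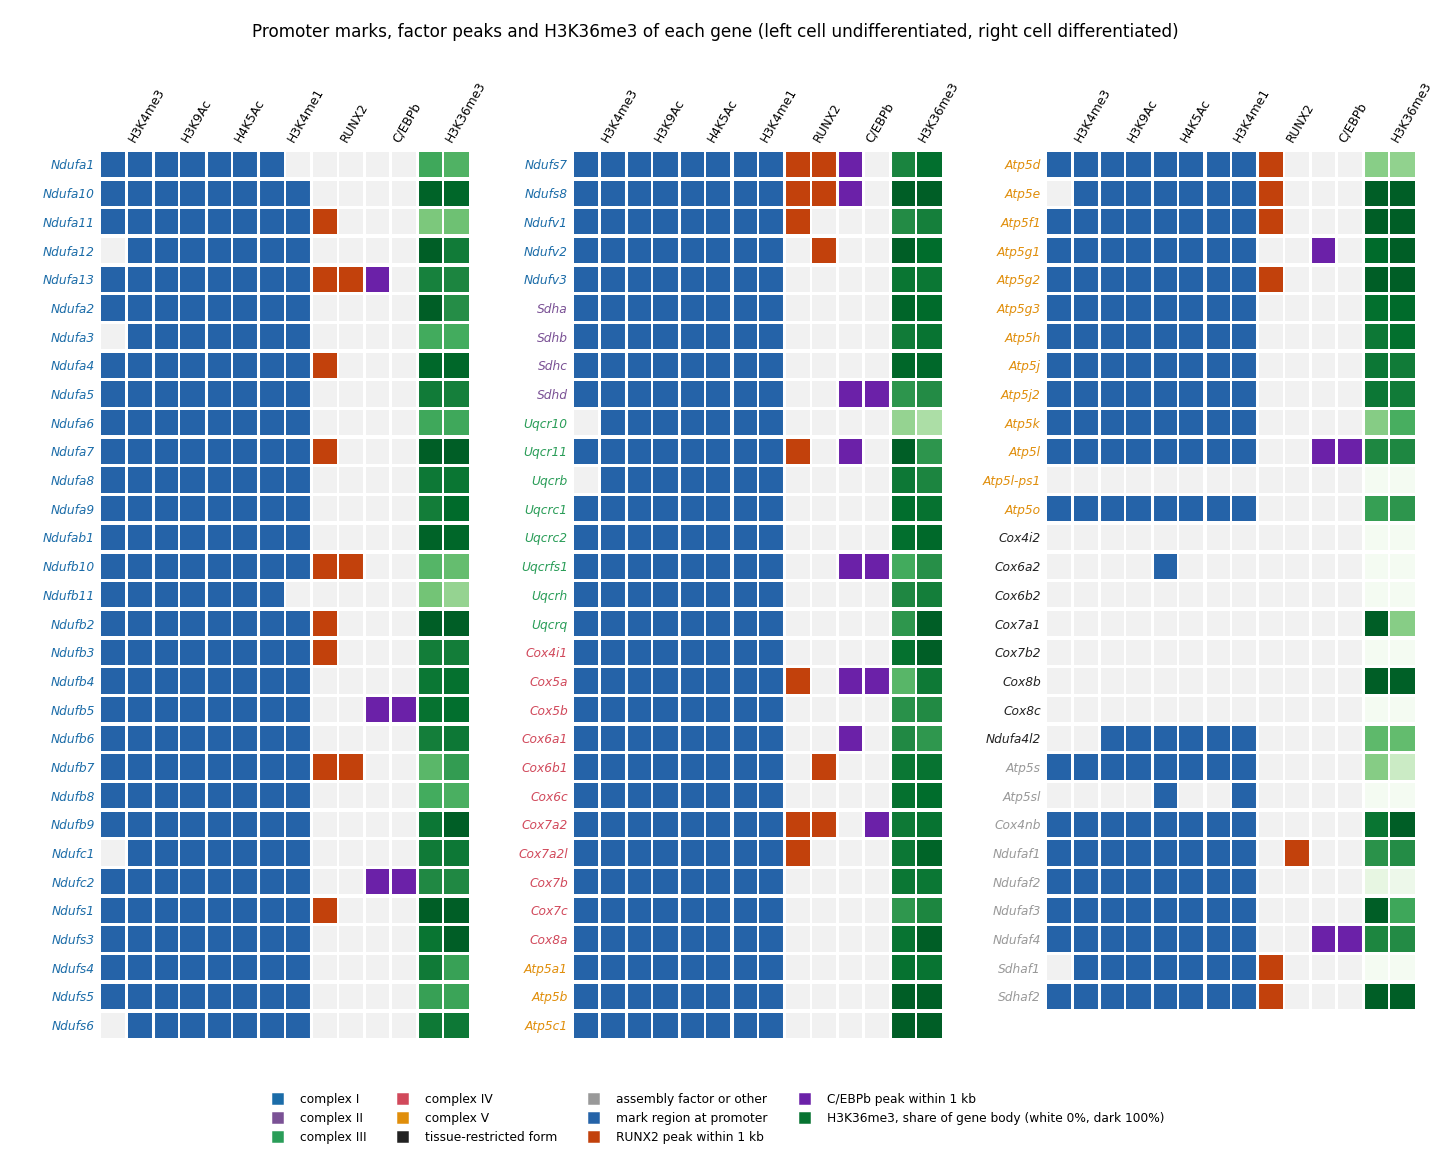
Each row is 1 of 92 of the 93 genes, in order of complex, and each pair of cells is an antibody with undifferentiated on the left and differentiated on the right: blue cells show a mark region overlapping the promoter, orange and purple cells a RUNX2 or C/EBPb peak within 1 kb of a TSS, and green cells the percentage of the gene body under H3K36me3. The blue block is nearly unbroken through complexes I to V and empty through most tissue-restricted forms, and orange cells are more frequent on the left of their pair (23 genes over all 93) than on the right (9 genes).

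By complex, H3K4me3 was at 33 of 37 complex I genes in undifferentiated and at all 37 in differentiated cells. The 4 complex II genes and the 11 complex IV genes had it in both states. In complex III it was at 6 and then 8 of 8 genes, and in complex V at 14 and then 15 of 16. The 1 complex V gene without any mark was Atp5l-ps1, annotated as protein-coding though its symbol is that of a pseudogene. Ndufa1 and Ndufb11, accessory subunits of complex I encoded on the X chromosome, had H3K4me1 in undifferentiated cells and lacked a region of it in differentiated cells, while their other 3 marks were in both states.

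The 8 tissue-restricted forms were the exception. None of them had promoter H3K4me3 in either state. Cox7a1 and Cox8b, known from heart and skeletal muscle, Cox4i2, known from lung, and Cox6b2, Cox7b2 and Cox8c, known from testis, had none of the 4 marks in either state. Cox6a2, the heart and skeletal muscle form of subunit VIa, had H4K5Ac in undifferentiated cells only. Their ubiquitous counterparts Cox4i1, Cox6a1, Cox6b1, Cox7a2, Cox7b and Cox8a had all 4 marks in both states, so within each of these subunit pairs only the ubiquitous gene had H3K4me3. Ndufa4l2, a relative of Ndufa4 known to be induced by low oxygen, differed from the rest in having H3K9Ac, H4K5Ac and H3K4me1 in both states without H3K4me3. Atp5sl, which has a subunit's symbol but is not one, had H4K5Ac in undifferentiated and H3K4me1 in differentiated cells only.

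Differentiated cells had an H3K4me3 region at 8 members that lacked one in undifferentiated cells, and no member lost its region. These were Ndufa12, Ndufa3, Ndufc1 and Ndufs6 of complex I, Uqcr10 and Uqcrb of complex III, Atp5e, which encodes the epsilon subunit of ATP synthase, and Sdhaf1, an assembly factor of complex II. All 8 already had H3K9Ac, H4K5Ac and H3K4me1 in undifferentiated cells. Their new regions were 1.13 to 2.25 kb wide, and the median region of the 83 members with H3K4me3 in differentiated cells was 2.35 kb wide. The new regions had low scores in the differentiated list, from percentile 3.31 at Sdhaf1 to 28.8 at Ndufc1, against a median percentile of 56.7 for the members with a region. Over all genes, 6.55% had H3K4me3 in differentiated cells only and 1.45% in undifferentiated cells only. Among genes with H3K9Ac and no H3K4me3 in undifferentiated cells, 8 of 9 members (88.9%, interval 51.8 to 99.7) and 1445 of 3190 of all genes (45.3%) had H3K4me3 in differentiated cells. Mitochondrial ribosomal protein genes showed the same kind of count, with H3K4me3 at 58 of 77 and then 75 of 77.

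Widths of the H3K4me3 regions moved in both directions. Of the 75 members with a region in both states, 37 had the wider region in differentiated cells, 49.3%, against 39% of 7447 genes overall. Some of the widest regions of undifferentiated cells were narrower in differentiated cells. The region at Ndufb9, a complex I accessory subunit gene, went from 8.29 to 3.06 kb, and that at Atp5g2, 1 of the genes for subunit c of the ATP synthase rotor, from 6.81 to 3.31 kb. Ndufb10 went the other way, from 5.73 to 6.56 kb, and was picked out after its values were seen. H3K9Ac regions were wider in differentiated cells at 73 of 84 members, 86.9%, and at 85.9% of all genes, so the share of members was close to that of all genes. H4K5Ac regions were wider at 10 of 84 members, 11.9%, against 22.3% of all genes.

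**Figure D2:**
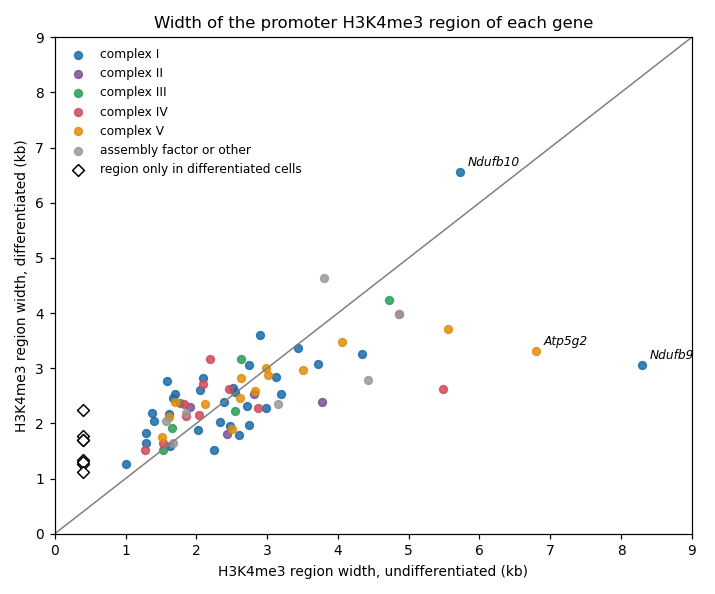
Width in kb of the widest H3K4me3 region overlapping the promoter of the members shown, undifferentiated cells on the horizontal and differentiated cells on the vertical axis, with the line of equal width. Points lie on both sides of the line, the wide regions of Ndufb9 and Atp5g2 in undifferentiated cells lie far below it, and the 8 diamonds are genes with a region in differentiated cells only, drawn left of the other points.

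RUNX2, the runt-domain factor required for bone formation, was at the promoters of a minority of the members. A RUNX2 peak, centred within 1 kb of a TSS, was found at 23 of 93 members in undifferentiated cells (24.7%, interval 16.4 to 34.8) and at 9 in differentiated cells (9.68%, interval 4.52 to 17.6). Over all genes the shares were 14.9% and 5.5%. Over the 7771 genes with promoter H3K4me3 in undifferentiated cells they were 33.9% and 12.2%. Of the 75 members with that mark, 21 (28%, interval 18.2 to 39.6) and then 9 (12%, interval 5.64 to 21.6) had RUNX2. In differentiated cells the share of marked members was thus close to that of all marked genes, and the interval of all 93 members held the share of all genes too. The count in differentiated cells was 0.391 times that in undifferentiated cells for members and 0.370 times for all genes. Of the 23 members with a promoter peak in undifferentiated cells, 6 also had one in differentiated cells (26.1%, interval 10.2 to 48.4), against 31.1% of the 3316 genes in the same position. The ratio of the counts at these genes was thus close to that over all genes.

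C/EBPb, a leucine zipper factor of the osteoblast and adipocyte lineages, was at 13 members in undifferentiated cells (14.0%, interval 7.66 to 22.7) and at 9 in differentiated cells (9.68%, interval 4.52 to 17.6). The shares of all genes were 10.3% and 6.33%, and those of genes with promoter H3K4me3 were 21% and 12.6%. All of these members had promoter H3K4me3 in undifferentiated cells, which made 17.3% and 12% of the 75 marked members. Of the 13 members, 7 also had a promoter peak in differentiated cells (53.8%, interval 25.1 to 80.8), against 49.4% of 2302 genes. Both factors were at the promoters of Ndufa13, Ndufs7, Ndufs8, Uqcr11 and Cox5a in undifferentiated cells and at that of Cox7a2 alone in differentiated cells.

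**Figure D3:**
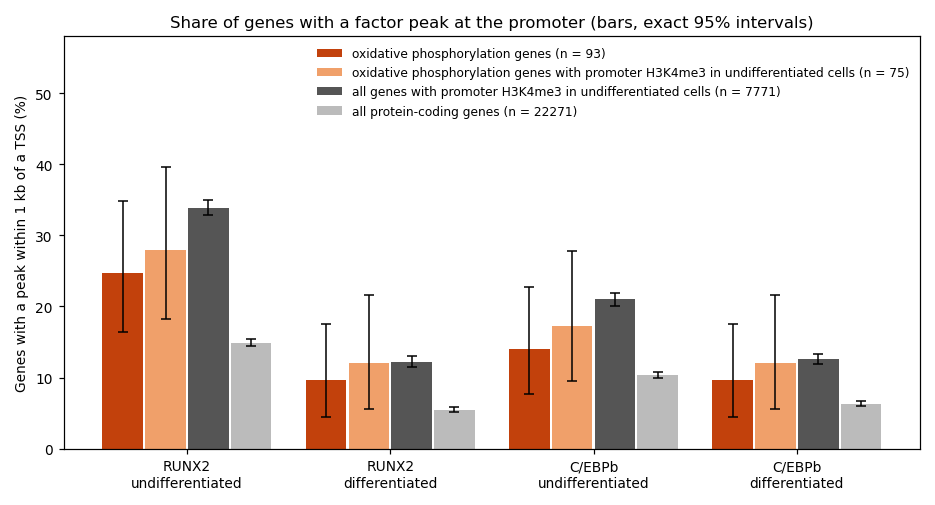
Percentage of genes with a RUNX2 or C/EBPb peak within 1 kb of a TSS in each state, for the 93 oxidative phosphorylation genes, for the 75 of them and the 7771 of all genes with promoter H3K4me3 in undifferentiated cells, and for all 22271 protein-coding genes, with exact 95% intervals. In differentiated cells the marked members (12% for each factor) stand level with all marked genes (12.2% and 12.6%).

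Promoter sequences of 8 members at such peaks, chosen because each holds a known factor motif, are given as the 160 bases upstream of the outermost TSS in mm9, read 5′ to 3′ in the direction of the gene, with no annotated exon in them. Capitals mark a motif on either strand. These are the RUNX motif TGTGGT with any further T of its longer form, the motif CCGGAAG of the ETS factor family, which includes the respiratory gene activator GABP, the C/EBP motif TTGCNNAA, and CGCATGCG of the respiratory gene activator NRF1. The first 5 were at RUNX2 peaks. RUNX2 was at Ndufs8 and Ndufb10 in both states, at Uqcr11 and Atp5e in undifferentiated cells and at Ndufaf1 in differentiated cells, where an ETS and a RUNX match stand side by side.
Ndufs8 (chr19:3912718-3912877, minus strand): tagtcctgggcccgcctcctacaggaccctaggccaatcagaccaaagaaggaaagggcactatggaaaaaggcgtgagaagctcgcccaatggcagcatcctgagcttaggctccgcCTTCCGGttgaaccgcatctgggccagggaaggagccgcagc
Ndufb10 (chr17:24861424-24861583, minus strand): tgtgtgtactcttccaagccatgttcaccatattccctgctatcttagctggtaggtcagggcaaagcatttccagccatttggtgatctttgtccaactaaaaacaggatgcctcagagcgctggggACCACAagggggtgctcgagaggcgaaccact
Uqcr11 (chr10:79869576-79869735, minus strand): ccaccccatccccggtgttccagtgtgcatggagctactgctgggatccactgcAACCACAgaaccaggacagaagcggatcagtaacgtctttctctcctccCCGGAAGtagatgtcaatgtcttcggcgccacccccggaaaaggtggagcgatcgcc
Atp5e (chr2:174289607-174289766, minus strand): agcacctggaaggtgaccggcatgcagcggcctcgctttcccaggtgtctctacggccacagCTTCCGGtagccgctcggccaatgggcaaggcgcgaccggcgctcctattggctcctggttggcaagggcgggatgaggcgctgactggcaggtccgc
Ndufaf1 (chr2:119488564-119488723, minus strand): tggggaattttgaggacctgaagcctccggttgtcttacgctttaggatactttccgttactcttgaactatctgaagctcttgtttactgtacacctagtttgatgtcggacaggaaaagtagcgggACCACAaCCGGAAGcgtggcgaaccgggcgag
The other 3 were at C/EBPb peaks, in both states at Uqcrfs1 and Ndufaf4 and in undifferentiated cells at Cox6a1.
Uqcrfs1 (chr13:30637232-30637391, minus strand): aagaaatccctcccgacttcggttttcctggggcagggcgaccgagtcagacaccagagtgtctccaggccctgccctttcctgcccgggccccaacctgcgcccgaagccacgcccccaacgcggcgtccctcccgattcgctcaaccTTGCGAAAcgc
Cox6a1 (chr5:115798991-115799150, minus strand): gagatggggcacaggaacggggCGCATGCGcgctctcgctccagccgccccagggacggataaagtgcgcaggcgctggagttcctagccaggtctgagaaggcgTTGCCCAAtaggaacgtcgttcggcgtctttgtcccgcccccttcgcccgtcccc
Ndufaf4 (chr4:24825070-24825229, plus strand): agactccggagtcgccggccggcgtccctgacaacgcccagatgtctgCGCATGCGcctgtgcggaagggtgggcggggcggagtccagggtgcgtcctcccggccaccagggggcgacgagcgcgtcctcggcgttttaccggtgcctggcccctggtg

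Of the 160 bases shown, the RUNX2 peak covered 119 at Ndufs8 in both states, 102 at Ndufb10 in undifferentiated cells, all 160 at Uqcr11, 140 at Atp5e and 150 at Ndufaf1. The C/EBPb peak covered 96 at Uqcrfs1, 160 at Cox6a1 and 72 at Ndufaf4 in undifferentiated cells. The C/EBP match of the Ndufaf4 peak lies outside the bases shown.

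Complex I, the largest group, held most of the RUNX2 promoters, 13 of 37 in undifferentiated and 6 of 37 in differentiated cells. Over all genes the shares were 14.9% and 5.5%. In undifferentiated cells the share of complex I was close to that of all genes with promoter H3K4me3, given above. Present in both states were Ndufa13, Ndufb10, Ndufb7, Ndufs7 and Ndufs8. Ndufs7 and Ndufs8 encode iron-sulfur subunits of the arm that reduces ubiquinone, and the other 3 are accessory subunits. The RUNX2 peak at Ndufs8 had the same start and end in both lists and was centred 19 bp upstream of the TSS. At Ndufb10 the peak centres lay 2 bp upstream and 8 bp downstream of the TSS. In undifferentiated cells only, RUNX2 was among others at Ndufa11, Ndufa4, Ndufa7, Ndufb2, Ndufb3, Ndufs1 and Ndufv1, of which Ndufs1 and Ndufv1 encode core subunits of the arm that oxidises NADH. Ndufa4 is counted with complex I by its name, though its protein is now known as a subunit of cytochrome c oxidase. Ndufv2, another gene of that arm, had a promoter peak in differentiated cells only, 619 bp upstream of a TSS. C/EBPb was at Ndufb5 and Ndufc2 in both states and at Ndufa13, Ndufs7 and Ndufs8 in undifferentiated cells only.

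In complex II, no gene had RUNX2 at its promoter, and Sdhd, a membrane anchor of succinate dehydrogenase, had C/EBPb in both states. In complex III, Uqcr11, the gene of a small subunit, had RUNX2 and C/EBPb in undifferentiated cells and neither in differentiated cells. Uqcrfs1, the gene of the Rieske iron-sulfur protein, had C/EBPb in both states, with centres 4 bp downstream and 25 bp upstream of the TSS.

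In complex IV, RUNX2 was at Cox7a2 in both states, at Cox5a and Cox7a2l in undifferentiated cells only and at Cox6b1 in differentiated cells only. Cox7a2l, despite its name, is known for its part in joining complexes III and IV. C/EBPb was at Cox5a in both states, at Cox6a1 in undifferentiated and at Cox7a2 in differentiated cells. In complex V, RUNX2 was at Atp5d, Atp5e, Atp5f1 and Atp5g2 in undifferentiated cells, with 2 peaks each at Atp5d and Atp5g2. It was at none of the 16 genes in differentiated cells. Over all genes the RUNX2 shares were 14.9% and 5.5%, so none of 16 genes is near the latter share. C/EBPb was at Atp5l in both states and at Atp5g1 in undifferentiated cells only. Among the non-subunits, the assembly factor genes Sdhaf1 and Sdhaf2 had RUNX2 in undifferentiated and Ndufaf1 in differentiated cells, while Ndufaf4 had C/EBPb in both. No tissue-restricted form had either factor within 1 kb.

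Many of these promoters are shared with another gene. A TSS of another gene on the opposite strand lay within 1 kb upstream of the outermost TSS at 28 of 93 members, 30.1%. The shares were 9.05% of all genes and 20% of genes with promoter H3K4me3. Of the 26 RUNX2 peaks at member promoters in undifferentiated cells, 7 were nearer to the TSS of another gene, for instance Rps28 beside Ndufa7, Eef1b2 beside Ndufs1 and Wdr77 beside Atp5f1. RUNX2 in undifferentiated cells was at 7 of the 28 members with such a neighbour, 25.0%, and at 16 of the 65 without one, 24.6%. Over all genes the shares were 33.9% with and 13% without such a neighbour, and over genes with promoter H3K4me3 in both states 39.3% and 33.2%. These peaks cannot be given to 1 gene of a pair from the lists alone.

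By the nearest TSS within 100 kb, RUNX2 peaks belonged to 27 members in undifferentiated and 16 in differentiated cells, 29.0% and 17.2%, against 27.3% and 15% of all genes. For C/EBPb the counts were 25 and 15, or 26.9% and 16.1%, against 27.7% and 21.8% of all genes. The RUNX2 shares in both states and the C/EBPb share in undifferentiated cells lay near those of all genes. The C/EBPb share in differentiated cells was below that of all genes, but it rests on 15 members and the difference was not tested. The C/EBPb count in differentiated cells was 0.6 times the undifferentiated one for members and 0.786 times for all genes. Ndufa10 and Atp5l had 5 such peaks each over both factors and both states, and Ndufb4 and Atp5g2 had 4 each. The peaks nearest to Ndufa10 were all distal, at 54565 to 82146 bp from its TSS.

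The promoter and distal RUNX2 peaks of the members differed in sequence. Undifferentiated promoter peaks were centred at a median of 85 bp from the TSS, 22 of 26 within 250 bp, and all 26 overlapped H3K9Ac, H4K5Ac and H3K4me1. The 12 distal peaks, nearest to a member's TSS but over 1 kb from it, had a median distance of 15465.5 bp. All 12 overlapped H4K5Ac and H3K4me1, 5 overlapped H3K9Ac and none overlapped H3K4me3. The RUNX motif was searched as TGTGGT and in its longer form TGTGGTT, which contains it, and the ETS motif as CCGGAAG, on both strands of the 201 bp peaks.

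**Figure D4:**
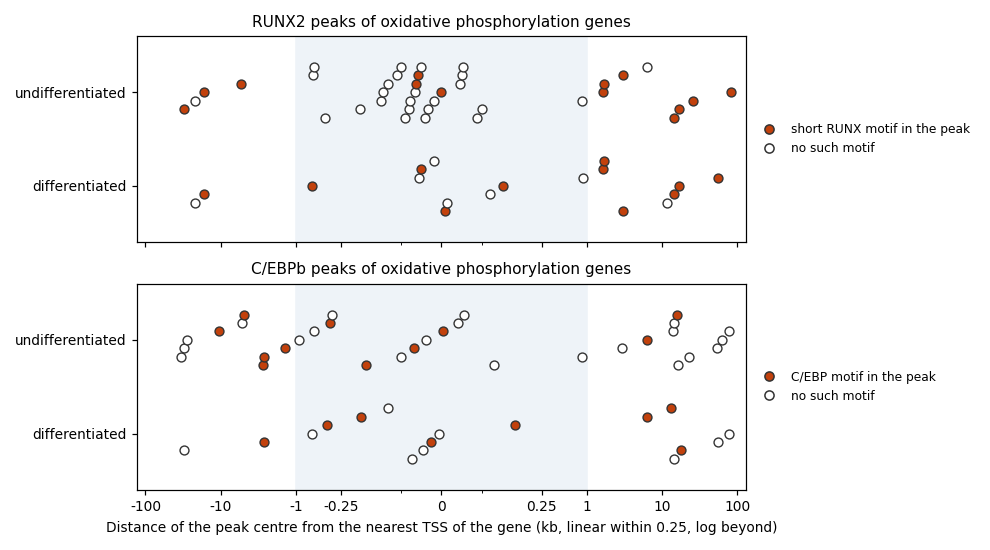
Distance in kb of each RUNX2 and C/EBPb peak centre from the nearest TSS of the member it lies near, by state, on an axis that is linear within 0.25 kb and logarithmic beyond, with the 1 kb window shaded, the vertical scatter within a state of no meaning, and peaks that hold the shorter RUNX motif or the C/EBP motif filled. In undifferentiated cells filled RUNX2 points are few inside the shaded window (3 of 26) and most of those outside it (10 of 12).

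TGTGGT was in 3 of 26 member promoter peaks in undifferentiated cells, 11.5%, and in 10 of 12 distal peaks, 83.3%. Over the whole RUNX2 list the shares were 23.9% of 3280 promoter peaks and 61.2% of 9394 other peaks, so the same difference ran through the list. TGTGGTT was in 1 of 26 and 10 of 12 member peaks, and in 11.9% and 35.9% of all peaks. In windows of the same width 1 kb to each side, TGTGGT was in 5.77% of 52 windows beside the members' promoter peaks and in 16.7% of 24 beside their distal peaks. CCGGAAG was in 8 of 26 promoter peaks, 30.8%, in none of the 12 distal peaks and in none of the 52 windows beside the promoter peaks. Over the list it was in 14.4% of promoter and 1.22% of other peaks. A motif is a match of letters and not a measured site, and these searches were added after peaks had been seen.

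In differentiated cells, TGTGGT was in 4 of 9 member promoter peaks, those at Ndufb10, Ndufs7, Ndufv2 and Ndufaf1, and in 7 of 9 distal peaks. Over the differentiated list the shares were 31.6% of promoter and 66% of other peaks. Of the undifferentiated RUNX2 peaks, 6 of 26 at promoters (23.1%, interval 8.97 to 43.6) and 7 of 12 distal ones (58.3%, interval 27.7 to 84.8) overlapped a differentiated peak. Over all genes the shares were 28.4% and 39.4%. Over the whole list, promoter peaks with TGTGGT overlapped a differentiated peak in 38.3% of 784 cases and those without it in 25.3% of 2496.

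The promoters of Ndufs8 and Atp5e shown earlier hold an ETS and no RUNX match, while those of Ndufb10, Uqcr11 and Ndufaf1 hold a RUNX match. Beside them, 3 distal RUNX2 peaks that were present in both states are shown whole, as called in undifferentiated cells. All 3 hold TGTGGT or its complement, given in capitals. They are picked examples, and the distal peak near Ndufb6, also present in both states, holds no such match. The peak near Ndufs5, an accessory complex I subunit gene, lies between genes 14416 bp downstream of the TSS and overlapped a C/EBPb peak in both states. The peak near Ndufa13 lies inside Gatad2a, 16599 bp upstream of the Ndufa13 TSS, and that of Atp5c1, the gene of the ATP synthase gamma subunit, lies in an intron of Atp5c1, 3016 bp downstream of its TSS.
Ndufs5 (chr4:123379053-123379253, plus strand): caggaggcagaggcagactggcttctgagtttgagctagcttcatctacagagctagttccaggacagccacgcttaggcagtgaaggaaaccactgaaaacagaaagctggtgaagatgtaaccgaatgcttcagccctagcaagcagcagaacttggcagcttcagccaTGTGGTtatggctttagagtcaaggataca
Ndufa13 (chr8:72442956-72443156, plus strand): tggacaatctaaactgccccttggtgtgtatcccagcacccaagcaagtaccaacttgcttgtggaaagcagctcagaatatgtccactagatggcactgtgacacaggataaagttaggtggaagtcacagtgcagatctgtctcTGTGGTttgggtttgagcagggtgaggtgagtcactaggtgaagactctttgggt
Atp5c1 (chr2:9998370-9998570, plus strand): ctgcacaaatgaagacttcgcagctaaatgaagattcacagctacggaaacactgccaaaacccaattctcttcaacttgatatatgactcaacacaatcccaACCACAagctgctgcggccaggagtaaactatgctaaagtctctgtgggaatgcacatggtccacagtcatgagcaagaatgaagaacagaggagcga

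In C/EBPb peaks, TTGCNNAA was in 4 of 13 member promoter peaks in undifferentiated cells, at Uqcrfs1, Cox5a, Cox6a1 and Ndufaf4, and in 7 of 19 distal peaks. The shares over the whole C/EBPb list were 36.3% of promoter and 42% of other peaks. Uqcrfs1, Cox5a and Ndufaf4 also held it in their differentiated peaks, as did Cox7a2, which had C/EBPb in differentiated cells only. In undifferentiated cells the members' C/EBPb peaks thus held the motif in 30.8% at promoters and 36.8% at distal sites. With so few peaks the intervals were wide, 9.09 to 61.4 and 16.3 to 61.6.

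The promoters of all 93 members were also searched, as 250 bases before to 50 after the outermost TSS. The NRF1 motif was in 8 (8.60%, interval 3.79 to 16.2), against 2.23% of all genes and 4.44% of genes with promoter H3K4me3. The ETS motif was in 20 (21.5%, interval 13.7 to 31.2), against 10.8% and 21.5%. The YY1 motif ATGGCGGC was in 7 (7.53%) against 2.73% and 5.82%, and the cAMP response element TGACGTCA in 4 (4.30%) against 2.32% and 3.81%. TGTGGTT was in 4 (4.30%) against 5.15% and 3.33%, and TGTGGT in 11 (11.8%) against 15.3% and 10.8%. The C/EBP motif TTGCNNAA was in 14 (15.1%, interval 8.48 to 24.0), against 10.3% and 7.5%. It was in 4 of the 15 members with a C/EBPb promoter peak in either state and in 10 of the 78 without one. TGTGGT and TTGCNNAA were not among the motifs planned at the start. The median number of CpG dinucleotides in the 300 bases was 17 for members, 11 for all genes and 22 for genes with promoter H3K4me3.

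H3K36me3, which covers the bodies of transcribed genes, was over nearly the whole body of most subunit genes in both states. The median cover was 89.3% of the gene body in undifferentiated and 88.1% in differentiated cells, against 1.17% and 0.409% over all genes and 91.0% and 91.2% over genes with promoter H3K4me3. At least 50% of the body was covered at 80 members (86.0%) and then 79 (84.9%), against 40.7% of all genes in both states. The median was 88.9% for complex I, 92.7% for complex II, 86.0% for complex III, 90.0% for complex IV and 91.5% for complex V in undifferentiated cells. It was 89.7%, 93.7%, 85.5%, 92.0% and 92.5% in differentiated cells. Members were short, with a median length of 7.49 kb against 15.5 kb for all genes.

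The 8 members without any H3K36me3 were the same in both states, namely Atp5l-ps1, Cox4i2, Cox6a2, Cox6b2, Cox7b2, Cox8c, Atp5sl and Sdhaf1. All but Sdhaf1 also lacked promoter H3K4me3 in both states. Sdhaf1, which had it in differentiated cells only, a gene of 0.965 kb, had H3K9Ac, H4K5Ac and H3K4me1 in both states. Among the tissue-restricted forms, Cox7a1, Cox8b and Ndufa4l2 had H3K36me3. The regions over them also covered all or part of a neighbouring gene, Capns1 for Cox7a1, Psmd13 for Cox8b and Shmt2 for Ndufa4l2.

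A few members differed in H3K36me3 cover between the states by at least 20 percentage points. Cover was higher by that much in differentiated cells at 2 members, 2.15%, against 2.28% of all genes, and lower by that much at 5 members, 5.38%, against 2.23% of all genes. The second count was 1 without the first 1 kb of the gene body, 2 with 1 kb added after its end, 3 among subunits only and 9 with regions at or above the median score. Of all 22271 genes, 11053 had no cover in undifferentiated cells and so could not fall, against 8 of 93 members. The 2 shares of falls are therefore not on an equal base. Nor are the 2 shares of rises, since high cover leaves little room to rise. The median cover in undifferentiated cells was 89.3% for members and 1.17% for all genes. Cox5a, a subunit of the matrix side of cytochrome c oxidase, had cover of 60.8% and then 89.0%, and Uqcrq, a small complex III subunit gene, 75.9% and then 100.0%. The region over Cox5a began inside the gene, at position 57373424 of chromosome 9 in undifferentiated and 57370265 in differentiated cells. The differentiated region also reached 2 neighbouring genes that the undifferentiated one did not cover, which lie outside the gene body measured. On the other side, Cox7a1 had 100.0% and then 47.6%, Ndufaf3 100.0% and then 68.9%, Atp5s 47.7% and then 23.6%, Uqcr11 100.0% and then 76.7%, and Ndufa2 100.0% and then 79.9%. At Cox7a1, Ndufaf3, Uqcr11 and Ndufa2 the region was shared with other genes in both states, and its edge moved: the region over Ndufaf3 was 75.4 and then 58.7 kb wide and that over Ndufa2 47.0 and then 6.79 kb. The members between these extremes lay near equality, with a median difference of 0 points. The next higher values were those of Atp5k at 47.8% and then 65.1%, Ndufb7 at 60.4% and then 73.7%, and Uqcrfs1 at 67.0% and then 79.3%.

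**Figure D5:**
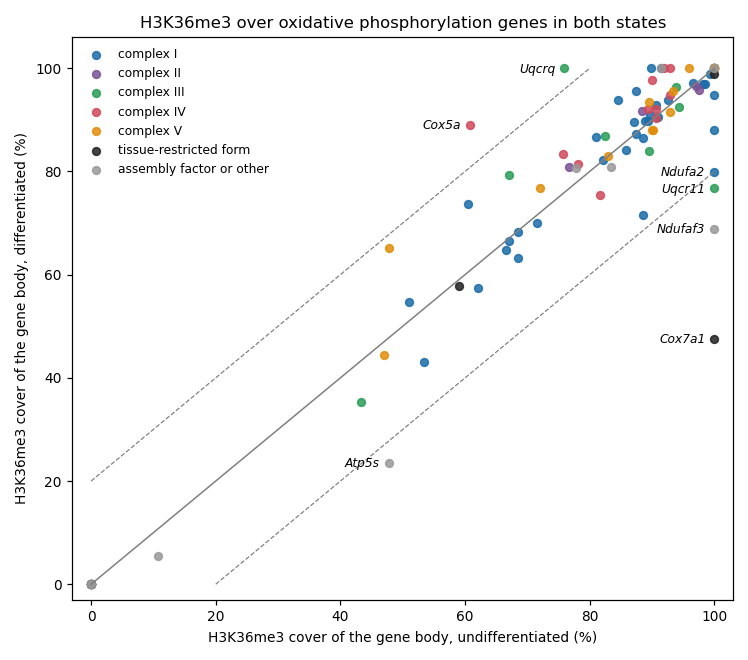
Percentage of each member's gene body under H3K36me3 regions, undifferentiated cells on the horizontal and differentiated cells on the vertical axis, coloured by complex, with the line of equality and dashed lines 20 points to either side. Most points lie near 90% in both states and between the dashed lines, the 7 named genes lie outside them, and 8 genes sit at 0.

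Genes of the same pathway outside the symbol rule were counted in the same way. Over all genes, H3K4me3 was at 34.9% in undifferentiated and 40% in differentiated cells, and RUNX2 at 14.9% and 5.5%. The higher RUNX2 shares of genes with promoter H3K4me3 are given above. Of 5 further subunits and partners of the chain, Cyc1 and Cycs among them, all had H3K4me3 in both states, and RUNX2 was at 3 promoters in undifferentiated and none in differentiated cells. The 16 genes of the citric acid cycle had H3K4me3 in both states, with RUNX2 at 6 and then 2 and a median H3K36me3 cover of 92.5% and 92.9%. Of 21 other assembly factors, 17 and then 19 had H3K4me3, and RUNX2 was at 5 and then 3. Of 14 regulators of mitochondrial gene expression, 10 and then 12 had H3K4me3, and RUNX2 was at 4 and then 1. Of 77 mitochondrial ribosomal protein genes, RUNX2 was at 24 (31.2%) and then 10 (13%). Of 18 glycolysis genes, 16 had H3K4me3 in each state, and RUNX2 was at 5 and then 3. RUNX2 counts were thus lower in differentiated cells in each of these lists, as they were over all genes.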

How the data were processed

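Per the labels, 14 ChIP-seq peak lists were made, for 7 antibodies in 2 states, each merged by the authors from biological replicates. The submitters' processing notes name Bowtie, HOMER and mm9, without versions, and no calling threshold is given here. The deposited score of a region, the authors' measure, was 0 in the factor lists and served only to rank mark regions within 1 list. The 2 input samples were not analysed here. The state of the differentiated H3K36me3 sample comes from its title, and H4K5Ac is named as in the antibody label. Unused columns of per-sample values numbered 0.

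Genes came from GENCODE vM1 (mm9). Entries of 1 symbol that overlapped on a strand were merged, which made 93 genes of 94 entries. Positions are 1-based. A mark counted from 1 bp of overlap with the window of 1 kb around any TSS, a factor from its peak centre, and H3K36me3 as the percentage of the gene body covered. Peaks of both states were matched from 1 bp of overlap. Named genes were members with a promoter factor peak (30 of 34 by complex and symbol, the other 4, Ndufaf1, Ndufaf4, Sdhaf1 and Sdhaf2, named after their values were seen), those without H3K4me3, the 5 largest differences of H3K36me3 in each direction, the 3 widest H3K4me3 regions and the 5 with most nearest peaks. 1 member is counted but not reported by name here, nor drawn in the map of members and the plot of widths. Other names in short lists were also given after values were seen. Members, lists and rules were chosen with earlier results of these data known. Timmdc1 and Dmac2l, of the pathway lists, had no match. Calls were tested on simulated data with 200 planted genes for each measure, or 200 windows of random letters for motifs, and 100% were recovered. This checks that the calls follow their definitions and not how they hold on real peak lists. Python 3.11.15, numpy 2.4.6, scipy 1.17.1, pysam 0.24.0 and matplotlib 3.10.9 were used. Alternatives varied the promoter width, TSS choice, peak assignment, score, gene body and member set.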

Additional observations from a re-analysis of the deposited data

How the results depend on the processing

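No paired analysis was possible because each antibody and state had 1 merged list and no test was run. Over 22 results, 111 of the 120 values under other settings stayed within 1.5 times the reported one. Keeping only regions at or above the median deposited score of their list left H3K4me3 at 38 members in undifferentiated and 52 in differentiated cells (18.6% and 21.7% of all genes). It left H3K4me1 at 52 members in undifferentiated cells, against 41.2% of all genes. The counts of H3K36me3 changes of 20 points were the least settled. Rises numbered 1 without the first 1 kb of the gene body and 1 with 1 kb added after its end. Falls numbered 9 with scores at or above the median, 1 without the first 1 kb, 2 with 1 kb added and 3 among subunits only. RUNX2 was at 17 members in undifferentiated and 8 in differentiated cells when a promoter peak also had to be nearest to that member. Within 500 bp it was at 21 and 7 members, against 13.5% and 4.74% of all genes. Without Atp5l-ps1, and with any overlap of the window in place of the peak centre, both added after seeing the data, the RUNX2 counts were 23 and 9. Depth is unknown, so a peak below the calling threshold in 1 state cannot be told from an absent one.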
